A study of Homo sapiens with 21 samples.

Results

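A set of 10 genes of the heterogeneous nuclear ribonucleoprotein (hnRNP) family other than HNRNPK itself (HNRNPA1, HNRNPA2B1, HNRNPA3, HNRNPC, HNRNPD, HNRNPH1, HNRNPL, HNRNPM, HNRNPR and HNRNPU) was examined as RNA targets of HNRNPK. They are 10 of the 18322 gene names that the deposited clusters carry, and their clusters were taken by gene name. In all, 666 of 778762 clusters were assigned to them. The RNA came from MDA-MB-231, a human triple-negative breast cancer cell line, either parental or with KRT19, the gene of keratin 19, knocked out by CRISPR-Cas9 (KRT19 KO), and whether the KO cells were 1 clone is not given in the sources used here. All cells of both genotypes were fed 4-thiouridine (4SU), irradiated with long-wave ultraviolet light and divided into cytoplasm and nucleus, and HNRNPK was pulled down with an antibody that the labels call anti-HNRNPK/J. Each of the 4 conditions, parental cytoplasm, KRT19 KO cytoplasm, parental nucleus and KRT19 KO nucleus, had 1 library, so no difference between conditions has a replicate check and no test was run. All intervals are 95% intervals and cover counting error only, with every read taken as independent.

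PAR-CLIP, a crosslinking and immunoprecipitation method that uses a photoactivatable nucleoside, reads RNA fragments that were crosslinked to a protein. A 4SU that was crosslinked is copied as C in place of T, and a cluster is a stretch of overlapping reads with such T-to-C changes. Proteins of the hnRNP family coat nascent transcripts, guide splicing, polyadenylation and export, and several shuttle between nucleus and cytoplasm. Many of them act on transcripts of their own genes and of each other, often through alternative exons or 3'UTRs that steer the mRNA to nonsense-mediated decay. HNRNPK binds C-rich, pyrimidine-rich RNA through its KH domains. Reads in clusters count HNRNPK-bound RNA, and more RNA of a gene in a fraction and more binding per RNA cannot be told apart, since no RNA-seq was analysed here.

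For each member, the locus with the most reads over the 4 libraries is shown first, because it alone held between 20.9% (HNRNPC) and 67.0% (HNRNPA1) of a member's reads. Each stretch is part of the cluster with the most reads, has at most 30 bases around the position with the highest signal, and is given in the sense of the RNA with T for U. Capitals mark the HNRNPK motif of the study's sequence logo, T or A, then T, C or A, then CCC, searched on the strand of the RNA only, where overlapping matches run together. Capitals are present at HNRNPA1, HNRNPC, HNRNPH1, HNRNPL and HNRNPM, and the other members' leading stretches hold no match.
HNRNPA1: ctactcttaagccatcttggtaaatTTCCC
HNRNPA2B1: atttacttttcctttcttaattttcctccc
HNRNPA3: aggtcatatatacatatattaatataaacc
HNRNPC: ctccttatttaaaacatcttTTCCCCtaac
HNRNPD: aatagctacaaaccatactaaattattcca
HNRNPH1: aaatattttctcaaaaaatataaaTTCCCa
HNRNPL: ccttccttttcTCCCCttaTTCCCTCCCCc
HNRNPM: atcctaaataATCCCaacATCCCaaatg
HNRNPR: actaaaaaatctattcaaaacattacctat
HNRNPU: gaaggttaataccataatttttccatttgt

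In the GRCh37 (hg19) build, these stretches lie at chr12:54678685-54678714 on the plus strand (HNRNPA1), chr7:26231002-26231031 on the minus strand (HNRNPA2B1), chr2:178085543-178085572 on the plus strand (HNRNPA3), chr14:21732515-21732544 on the minus strand (HNRNPC) and chr4:83276478-83276507 on the minus strand (HNRNPD). The others lie at chr5:179042515-179042544 on the minus strand (HNRNPH1), chr19:39336430-39336459 on the minus strand (HNRNPL), chr19:8530316-8530343 on the plus strand (HNRNPM), chr1:23636271-23636300 on the minus strand (HNRNPR) and chr1:245017026-245017055 on the minus strand (HNRNPU). In the canonical transcripts of GENCODE, 6 of the 10 leading loci are in the 3'UTR (HNRNPA1, HNRNPA2B1, HNRNPA3, HNRNPD, HNRNPR and HNRNPU), 3 are intronic (HNRNPC, HNRNPH1 and HNRNPL) and that of HNRNPM is in coding exon 6. All 666 member clusters were equal to GRCh37 at their deposited positions. At each of the 57 member loci with at least 100 reads, the sequence of the leading cluster had 1 exact copy in that genome. Copies with a mismatch were not searched. Reads from processed pseudogenes, which hnRNP genes have in number, are therefore not excluded. Clusters named for the pseudogenes HNRNPH1P3 and HNRNPRP1 had 5 reads each, in the parental cytoplasm.

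Reads in clusters numbered between 3252800 and 6216226 per library, and member reads between 5294 and 11587. Unique reads made up 33.0% and 47.8% of the member reads in the parental and KRT19 KO cytoplasm, and 23.5% and 21.2% in the nuclei. Of the member clusters, 49 of 160 in the parental nucleus and 46 of 176 in the KRT19 KO nucleus had 1 unique read. In the parental and KRT19 KO cytoplasm these were 24 of 177 and 9 of 153. Intervals may therefore be too narrow, above all where a nuclear library enters. The line's markers VIM, CD44 and AXL had reads in all 4 libraries, CDH1, which this line lacks, had 6 reads in 1 library and none in the others, PGR had no cluster, and ESR1 had between 26 and 77 reads. Levels are given in RPM, the reads in the clusters of a gene per 1000000 reads in all clusters of its library. An RPM value is thus a share of the bound reads of 1 library. A difference between libraries in the total amount of HNRNPK-bound RNA does not show in it. The paper reports less cytoplasmic HNRNPK in KRT19 KO cells, which RPM does not measure. The nuclear RNA NEAT1 stood at 226.4 RPM in the parental cytoplasm against 789 in the parental nucleus, and at 204 against 1092 in the KRT19 KO cells, and KCNQ1OT1 was likewise lower in cytoplasm. MALAT1, also a nuclear RNA, was higher in the cytoplasmic libraries, at 1229 against 888 and at 842 against 548, so 2 of the 3 nuclear RNAs were lower in cytoplasm, and how far nuclear RNA entered the cytoplasmic libraries was not tested. KRT19 had 7 and 5 reads in the parental and the KO cytoplasm and no cluster in either nucleus, too few to check the genotype.

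Together the 10 members stood at 1925 RPM (1889 to 1962) in the parental cytoplasm, 1864 RPM (1830 to 1898) in the KRT19 KO cytoplasm, 1497 RPM (1456 to 1537) in the parental nucleus and 1819 RPM (1773 to 1866) in the KRT19 KO nucleus. The sum was thus highest in the parental cytoplasm and lowest in the parental nucleus. Behind it, HNRNPU led the members in either cytoplasm and HNRNPC led them in either nucleus. HNRNPU held 26.9% of the member reads in the parental and 35.7% in the KO cytoplasm, and HNRNPC held 44.3% and 43.0% in the nuclei.

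**Figure D1:**
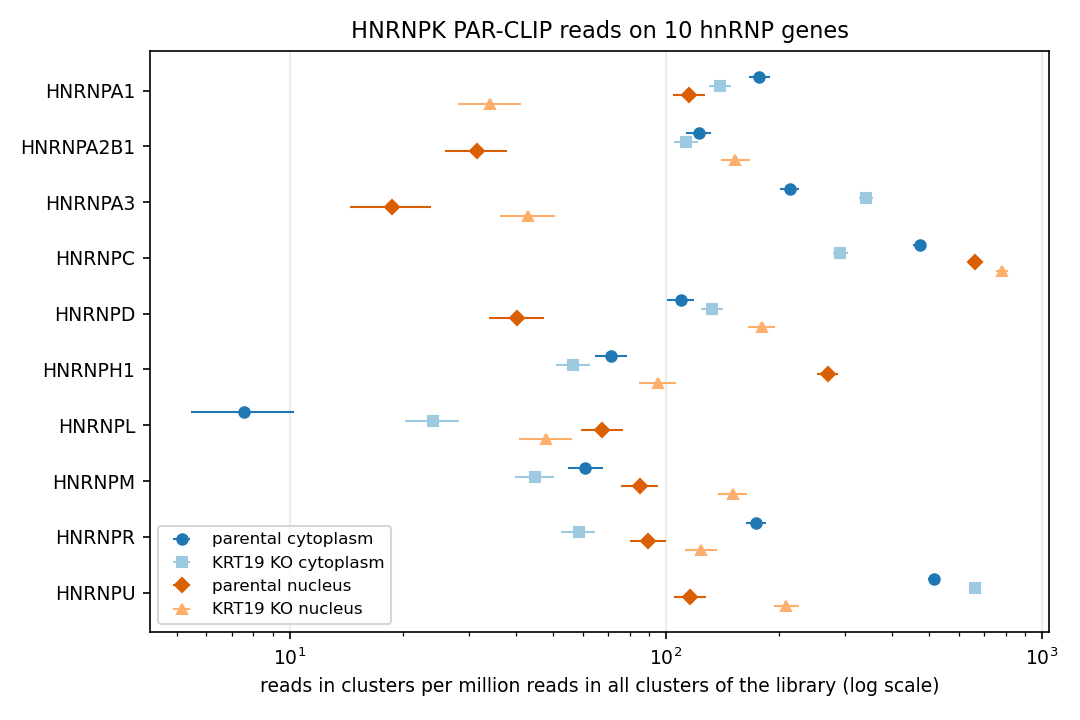
Levels in RPM (log scale) of each of the 10 hnRNP genes in the 4 libraries, with 95% Poisson intervals as bars. HNRNPA3 and HNRNPU lie to the right in the cytoplasmic libraries (blue), HNRNPC and HNRNPL in the nuclear ones (orange), and values range from 7.57 to 782.

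HNRNPU, also known as scaffold attachment factor A, binds chromatin and nascent RNA. Its levels were 517, 665, 116 and 209 RPM in the parental cytoplasm, KRT19 KO cytoplasm, parental nucleus and KRT19 KO nucleus, the order used for 4 values from here on. Either cytoplasmic library was above either nuclear one. In the cytoplasm, 95.2% and 92.7% of its reads were in the 3'UTR, against 72.5% and 44.4% in the nucleus, where introns held 25.8% and 54.6%. Its leading locus, in the 3'UTR in exon 14, had 1656, 1441 and 205 reads in the first 3 libraries and no cluster in the KRT19 KO nucleus. The other leading HNRNPU locus, in the same 3'UTR, had 640, 1839 and 30 reads and again no cluster in the KRT19 KO nucleus. Both were strong in cytoplasm, and together they held 71.8% of all HNRNPU reads.

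HNRNPA3, a member of the A/B group that binds RNA through paired RRM domains, had 213, 340, 18.7 and 43.0 RPM. Its level in either cytoplasmic library was above that in either nuclear one. Its 3'UTR held 98.4% and 99.2% of the reads in the cytoplasmic libraries. The leading locus in that 3'UTR had 621, 1030, 31 and 30 reads, and was among the 18 member loci with a cluster in every library. The third locus, in the same 3'UTR, had 261 and 338 reads in the cytoplasmic libraries and no cluster in either nucleus.

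HNRNPA1, a shuttling splicing repressor that takes part in mRNA export, had 177, 139, 115 and 34.1 RPM. A single locus held 67.0% of its reads and was nearly restricted to cytoplasm, with 794, 786, 0 and 5 reads. It lies in the 3'UTR in exon 11, and its downstream end is directly before a 3' splice site that GENCODE annotates inside this 3'UTR. The other HNRNPA1 reads were more frequent in the parental nucleus than in the parental cytoplasm (ratio of cytoplasm to nucleus 0.296, 0.248 to 0.352).

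HNRNPA2B1, a splicing factor that also sorts RNA in the cytoplasm, had 122, 113, 31.4 and 153 RPM. The parental nucleus was the low library of the 4, with 111 reads of which 19 were unique. Its leading locus, in the 3'UTR in exon 11, had 340, 289, 0 and 285 reads. The locus ranked behind it, in intron 10 and ending 14 nt before an annotated 3' splice site, had 102, 82, 0 and 54 reads. Both were without a cluster in the parental nucleus.

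HNRNPD, or AUF1, binds AU-rich elements and governs mRNA decay. It had 109, 133, 40.1 and 180 RPM. In the cytoplasm, 1 locus at the end of its reading frame, annotated as stop codon in the deposited clusters and as 3'UTR in exon 8 of the canonical transcript, held most reads, with 416 and 566 and no cluster in either nucleus. In the nuclear libraries introns held 95.1% and 97.4% of HNRNPD reads. The leading intronic locus of the parental nucleus had 30 reads. In the KRT19 KO nucleus a locus in intron 2 led, with 162 reads there and no cluster in the parental nucleus. That intron 2 locus also had 91 and 43 reads in the parental and the KO cytoplasm.

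HNRNPC binds U-rich tracts of introns and is largely kept in the nucleus. It had 472, 291, 663 and 782 RPM, spread over 116 loci, the most of any member. Little of it was in the 3'UTR, with 3'UTR shares of 11.1%, 7.09%, 1.36% and 1.61%. By the deposited classes, introns held 68.3%, 50.6%, 62.4% and 47.0% of its reads, and the 5'UTR 19.7%, 42.4%, 36.3% and 51.4%. The leading 5'UTR locus had 252, 387, 516 and 793 reads, and in the canonical transcript it lies in intron 1, 525 nt before an annotated 3' splice site. A locus in intron 2 had 480 and 358 reads in the parental libraries and no cluster in either KO library.
HNRNPC, intron 2: aaatttaaaaaactcaaAACCCCATCCCat
That stretch, chr14:21717220-21717249 on the minus strand, is shown because its clusters were found in parental cells only, and it holds 3 matches of the motif. The locus was among 15 member loci found in both parental libraries and in no KO library. The reverse pattern, both KO libraries and no parental one, was seen at 9 member loci. Neither pattern was counted over all genes. A further intron 1 locus of HNRNPC had 221, 167 and 275 reads in the KRT19 KO cytoplasm, the parental nucleus and the KRT19 KO nucleus and no cluster in the parental cytoplasm.

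HNRNPH1, which binds G-rich RNA and regulates splicing, had 71.5, 56.6, 269 and 94.995 RPM. The parental nucleus was the high library. Introns held between 90.1% and 98.1% of its reads in each library. Its leading locus, in intron 13, had 235 and 243 reads in the cytoplasmic libraries and no cluster in the nuclear ones. In contrast, a locus in intron 5 that ends directly before an annotated 3' splice site had 189 and 80 reads in the nuclear libraries and no cluster in the cytoplasmic ones. The 2 loci of this gene thus divided by fraction in opposite ways.

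HNRNPL, which binds CA-rich RNA and regulates splicing and polyadenylation, was the member with the fewest reads. It had 7.57, 24.0, 67.6 and 48.0 RPM, from 42, 149, 239 and 156 reads. The cytoplasmic libraries were below the nuclear ones. All of its reads in the parental libraries were intronic, and its leading locus, in intron 3, had 11, 0, 72 and 67 reads.

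HNRNPM, a splicing regulator with a known role in epithelial-mesenchymal transition, had 61.1, 44.7, 85.1 and 151 RPM. By canonical transcripts, its leading locus was the only one of the 10 in coding sequence, in exon 6, with 108, 147, 43 and 165 reads. It was present in every library and holds the motif 2 times. Introns held between 41.4% and 84.1% of HNRNPM reads.

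HNRNPR, a paralog of SYNCRIP that takes part in mRNA processing and transport, had 174, 58.6, 89.6 and 124 RPM. The parental cytoplasm was the high library. There 519 of its 964 reads came from 1 locus, which had no cluster in the KO cytoplasm and 51 and 57 reads in the nuclei. The deposited class of this locus is processed transcript, while the canonical transcript has its 3'UTR there, in exon 11.

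**Figure D2:**
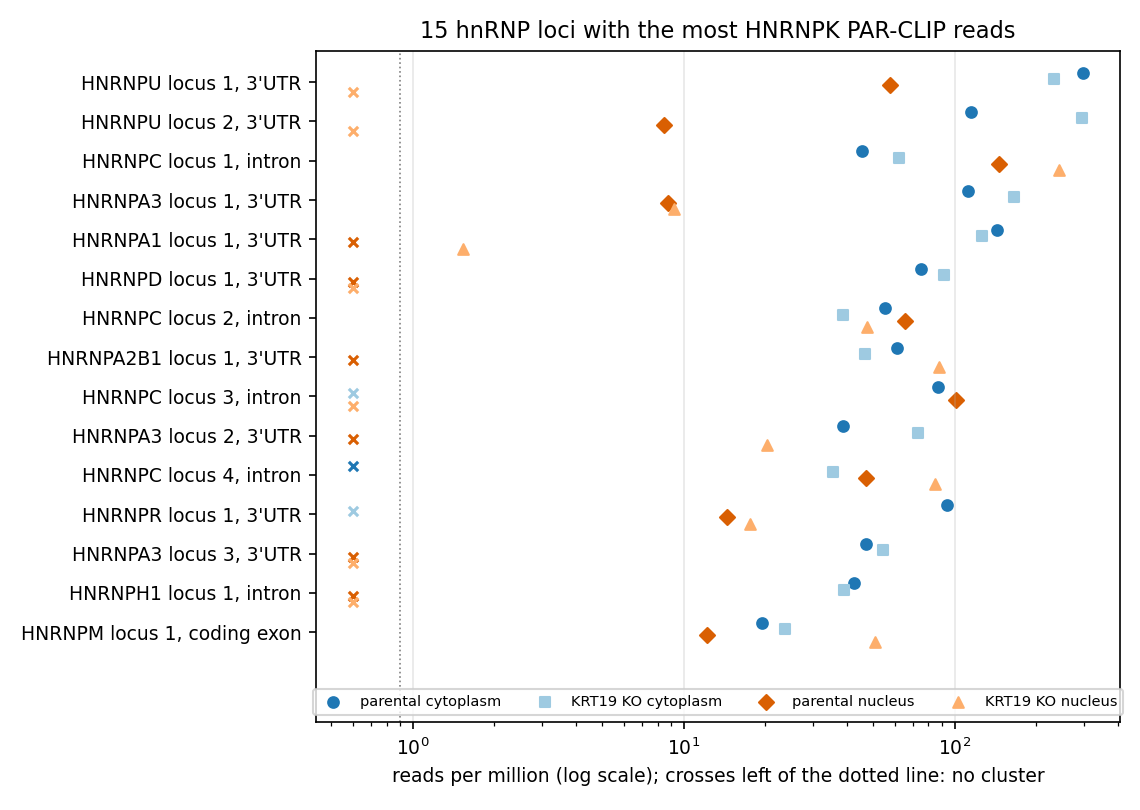
Levels in RPM (log scale) at the 15 loci with the most reads over the 4 libraries, numbered by rank within their gene and labelled with the canonical GENCODE feature; a cross means that the library has no cluster there. The leading loci of HNRNPU, HNRNPA1, HNRNPD, HNRNPA2B1 and HNRNPH1 have points in both cytoplasmic libraries and a cross in at least 1 nuclear library, and HNRNPC locus 3 has crosses in both KO libraries.

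The first question was how the members' share of the bound reads differed between fractions. In parental cells, the members' sum was 1.29 times as high in the cytoplasm as in the nucleus (1.25 to 1.33). HNRNPA3 (11.4 times, 8.93 to 14.9), HNRNPU (4.45, 4.01 to 4.95), HNRNPA2B1 (3.90, 3.19 to 4.81) and HNRNPD (2.72, 2.26 to 3.29) were at least 2-fold higher in cytoplasm. That made 4 of 10 members, against 18.8% of the 9590 genes with at least 50 reads in the compared libraries together. HNRNPL (ratio 0.112, 0.0787 to 0.156) and HNRNPH1 (0.265, 0.236 to 0.299) were at least 2-fold lower, or 2 of 10 members against 34.8% of genes. In either direction that was 6 of 10, against 53.6%. The median log2 ratio was 0.79 for the members and -0.54 for all genes tested. With clusters of at least 2 conversion locations, HNRNPD moved to 18.8 (10.7 to 36.7), HNRNPA2B1 to 7.38, HNRNPH1 to 0.159 and the sum to 0.980, and with T-to-C reads only HNRNPA3 moved to 7.07. With 10 members from 1 library each, these shares are descriptions.

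In KRT19 KO cells the members' sum had a ratio of 1.02 (0.993 to 1.06), and of 0.618 (0.598 to 0.640) in clusters of at least 2 conversion locations. HNRNPA3 (7.91, 6.66 to 9.45), HNRNPA1 (4.07, 3.34 to 5.01) and HNRNPU (3.18, 2.93 to 3.45) were past 2-fold higher in cytoplasm, 3 of 10 members against 24.4% of 9458 genes. HNRNPM (0.297, 0.255 to 0.345), HNRNPC (0.371, 0.349 to 0.395), HNRNPR (0.471, 0.408 to 0.545) and HNRNPL (0.4998, 0.397 to 0.630), which sat at the threshold, were lower, 4 of 10 members against 41.2% of genes, and 7 of 10 in either direction against 65.6%. The members' median log2 ratio was -0.59, near the -0.62 of all genes tested. With T-to-C reads only, HNRNPR stood at 0.549 (0.458 to 0.657) and HNRNPL at 0.611 (0.461 to 0.810), which left 2 members lower in place of 4. With at least 2 conversion locations HNRNPU fell just under 2-fold, at 1.95 (1.79 to 2.14), HNRNPC moved to 0.192 and HNRNPA3 to 5.14, and HNRNPA2B1 (0.429) and HNRNPH1 (0.342) joined the members past 2-fold lower. HNRNPA3 and HNRNPU were past 2-fold higher in cytoplasm in both cell lines with all cluster reads, and HNRNPL was past 2-fold lower in both.

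Much of this hinged on single loci. The leading loci were picked by reads summed over the 4 libraries, and the cytoplasmic libraries are the deeper ones. That pick favours loci strong in cytoplasm. Leaving them out therefore tends to lower the ratio of cytoplasm to nucleus by the choice itself. Without the leading locus of each member, a setting added once the values were known, the ratio of the sum was below 1 in both cell lines, at 0.835 (0.803 to 0.869) for parental and 0.776 (0.746 to 0.807) for KRT19 KO. HNRNPD then stood at 0.857 (0.686 to 1.07) in parental cells in place of 2.72, and HNRNPA1 at 0.385 (0.284 to 0.521) in KRT19 KO cells in place of 4.07. HNRNPA2B1 fell under 2-fold in parental cells, at 1.95 (1.57 to 2.43), and HNRNPR stood near 1 there, at 1.07 (0.914 to 1.25) in place of 1.94. HNRNPH1 went further toward the nucleus, at 0.108 (0.0911 to 0.128) in parental and 0.185 (0.147 to 0.230) in KO cells, as its leading locus was the cytoplasmic one in intron 13, and HNRNPD in KO cells went from 0.737 to 0.231. HNRNPA3 kept ratios of 10.3 and 5.17, and HNRNPU of 3.76 and 2.07. With only the loci that had a cluster in both libraries compared, HNRNPU kept 4.37 in parental cells and turned to 0.674 (0.602 to 0.756) in KRT19 KO cells, since both of its leading loci lack a cluster in the KRT19 KO nucleus. In that setting HNRNPA1 stood at 0.434 (0.321 to 0.585) in parental cells and at 27.8 (16.8 to 49.9) in KO cells, where the leading locus counts with its 5 nuclear reads.

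**Figure D3:**
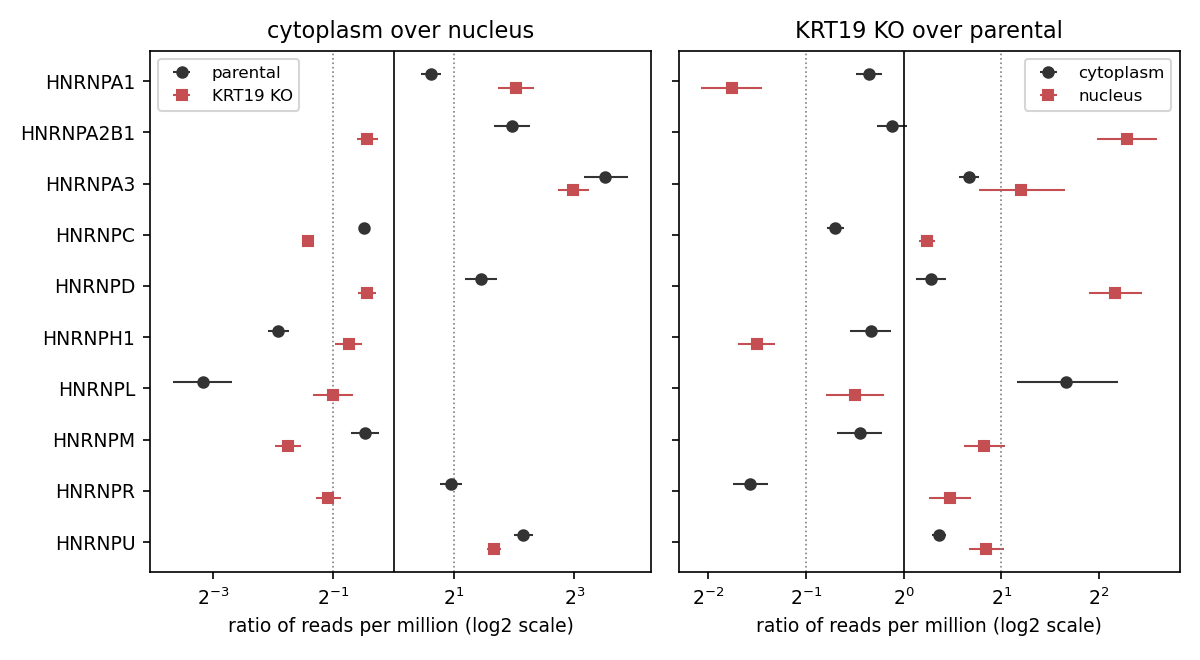
Ratios of RPM on a log2 scale with 95% Clopper-Pearson intervals, cytoplasm over nucleus in each cell line (left) and KRT19 KO over parental in each fraction (right); the solid line marks a ratio of 1 and the dotted lines 2-fold. HNRNPA3 and HNRNPU are right of 2-fold in both cell lines on the left, and on the right HNRNPA2B1 and HNRNPD stand at 4.87 and 4.48 in the nucleus.

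The next question was how the members differed between KRT19 KO and parental cells. In the cytoplasm the ratio of the sum was 0.968 (0.943 to 0.994). HNRNPL was higher in the KO cytoplasm (3.17, 2.24 to 4.58, from 42 and 149 reads) and HNRNPR was lower (0.337, 0.298 to 0.381). That was 1 of 10 members in each direction, against 20.6% of 9378 genes past 2-fold higher and 22.4% past 2-fold lower, or 43.0% in either direction. The other 8 members stayed between 0.615 for HNRNPC and 1.60 for HNRNPA3. Without the leading locus, HNRNPR stood at 0.731 (0.634 to 0.841), and in loci with clusters in both cytoplasms at 0.871 (0.737 to 1.03).

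In the nucleus the sum was 1.22 times as high in KRT19 KO as in parental cells (1.17 to 1.26). HNRNPA2B1 (4.87, 3.96 to 6.04), HNRNPD (4.48, 3.72 to 5.42) and HNRNPA3 (2.31, 1.71 to 3.14) were past 2-fold higher in the KO nucleus, 3 of 10 members against 14.4% of 9371 genes. HNRNPA1 (0.297, 0.238 to 0.367) and HNRNPH1 (0.353, 0.309 to 0.401) were past 2-fold lower, 2 of 10 against 18.2% of genes, and 5 of 10 in either direction against 32.6%. The members' median log2 ratio was 0.65, and that of all genes tested was -0.10. HNRNPA3 fell under 2-fold with unique reads, at 1.84 (0.990 to 3.52), and with T-to-C reads, at 1.47 (1.03 to 2.13), and HNRNPA1 stood at 0.511 (0.399 to 0.652) with T-to-C reads. In clusters of at least 2 conversion locations HNRNPD stood at 41.2 (23.3 to 80.4) and HNRNPA2B1 at 15.1 (10.6 to 22.1). With only loci found in both nuclei, 2 of the 5 members stayed past 2-fold, HNRNPD at 4.18 (2.49 to 7.33) and HNRNPH1 at 0.449 (0.363 to 0.552), while HNRNPA2B1 stood at 1.19 (0.479 to 2.97), HNRNPA3 at 1.05 (0.615 to 1.80) and HNRNPA1 at 0.624 (0.454 to 0.852). Without the leading loci HNRNPA2B1 stood at 2.08 (1.64 to 2.64), and HNRNPU, within 2-fold with them at 1.80, stood at 3.59 (3.07 to 4.22). The comparisons within a fraction and within a cell line share libraries, so their values are not independent of each other.

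Where on the transcripts HNRNPK was bound was compared by the deposited annotation classes, with start and stop codon clusters counted as coding. The 3'UTR held 52.7% (51.8 to 53.7%) and 64.7% (63.8 to 65.6%) of member reads in the parental and KO cytoplasm, and 15.1% (14.2 to 16.1%) and 14.9% (14.0 to 15.9%) in the nuclei. These pooled shares were above those of all genes, 37.8%, 53.6%, 6.42% and 6.90%. They were below those of the 11 SR splicing factor genes, 92.7%, 96.1%, 48.6% and 46.8%. The members were divided, however. In each library HNRNPA1, HNRNPA2B1, HNRNPA3 and HNRNPU were above the share of all genes, and every other member was below it. In the parental cytoplasm the former had 96.6%, 64.2%, 98.4% and 95.2%, and the highest of the others was HNRNPC with 11.1%. Introns held 30.1%, 19.5%, 64.2% and 57.9% of member reads. In RPM, the members' 3'UTR reads were 4.48 times (4.16 to 4.83) as high in the parental cytoplasm as in the nucleus and 4.44 times (4.14 to 4.77) in KRT19 KO cells, while intronic reads had ratios of 0.604 (0.576 to 0.634) and 0.346 (0.328 to 0.365). The direction was that of all genes, whose ratios were 5.92 and 8.73 in the 3'UTR and 0.632 and 0.386 in introns. By count of clusters the cytoplasmic 3'UTR shares were lower, 26.6% and 30.7%, since the 3'UTR clusters were those with many reads.

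The 5'UTR share of member reads, 4.84%, 6.60%, 16.5% and 22.1%, was above the 0.513%, 2.99%, 0.713% and 0.488% of all genes. HNRNPC supplied all of these reads in 3 libraries and 851 of 875 in the parental nucleus, where 24 were from HNRNPH1. As the leading HNRNPC loci of that class are intronic in the canonical transcript, the share depends on which transcript names the position. By canonical transcripts, 3'UTRs held 100 of the 423 member loci and 49.8% of reads, introns 287 loci and 47.2% of reads, coding exons 34 loci and 2.74% of reads, and 5'UTRs 1 locus.

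**Figure D4:**
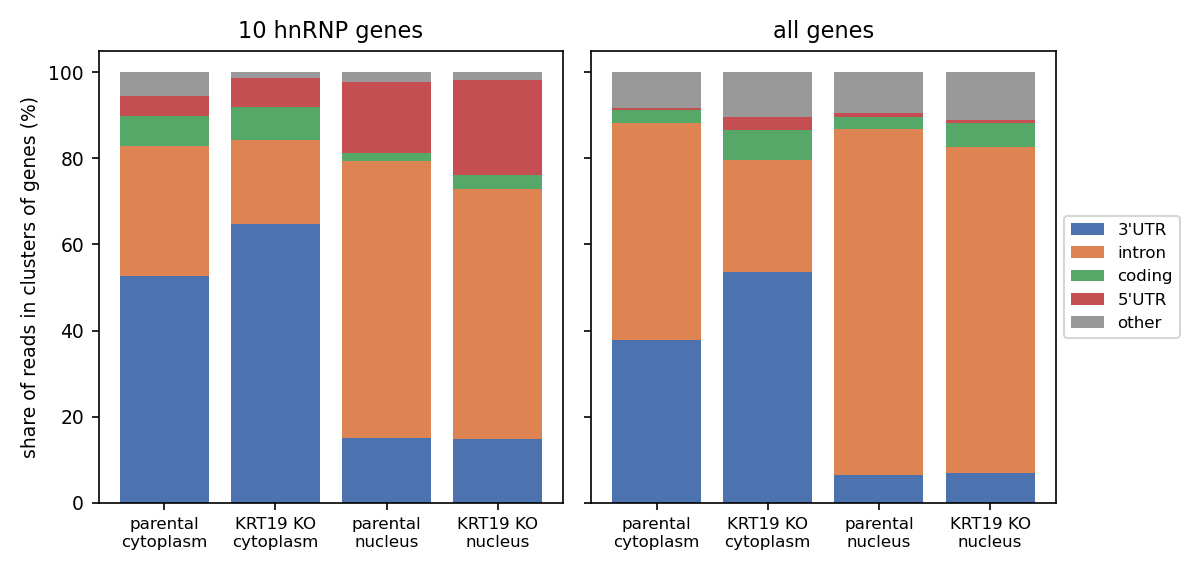
Shares of reads by deposited annotation class in the clusters of the 10 hnRNP genes (left) and of all genes (right) in the 4 libraries, as stacked bars in percent. In both panels the 3'UTR share (blue) is larger in the cytoplasmic than in the nuclear libraries, and the members' 5'UTR share (red) reaches 16.5% and 22.1% in the nuclei.

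Alternative exons and 3'UTRs of hnRNP genes are known sites of cross-regulation, so the loci were set against annotated transcripts. Of the 423 loci, 94 (39.9% of reads) overlapped an exon of a transcript annotated for nonsense-mediated decay, among them the leading loci of HNRNPA2B1, HNRNPA3, HNRNPD, HNRNPM and HNRNPU, and 168 overlapped an exon of a retained-intron transcript. Most of these bases are also exons of coding transcripts, and 48 loci (9.02% of reads) were in such an exon and in no exon of a protein-coding transcript. These overlaps were not counted over all genes, so whether they are more frequent at the members is not known. Clusters that end at most 50 nt before an annotated 3' splice site made up 7.91% (4.77 to 12.8%), 4.58% (2.23 to 9.14%), 6.88% (3.88 to 11.9%) and 8.52% (5.23 to 13.6%) of member clusters. Over all genes these shares were 1.05%, 1.07%, 1.64% and 1.84%, and over the SR genes 6.20%, 2.46%, 5.49% and 1.89%. The members have many annotated exons for their length, such windows making up 3.23% of their bases and 2.17% of those of the SR genes. Over all genes such windows made up 0.826% of bases. That value covers the 13898 of 18322 names that matched the annotation, and so not the same genes as the cluster shares. The part of exon density in the difference was not tested.

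Sharing across the libraries was compared after clusters that overlap on the same strand had been merged into loci. Of the 423 member loci, 266 were found in 1 library, 92 in 2, 47 in 3 and 18 in all 4. The 4.26% (2.71 to 6.63%) in all 4 compares with 1.89% of the loci of all genes. Among the 57 member loci with at least 100 reads, 14 or 24.6% (15.2 to 37.1%) were in all 4 libraries, against 27.0% of such loci of all genes. HNRNPC had 9 of the 18, HNRNPU 3, HNRNPM 2, and HNRNPA1, HNRNPA3, HNRNPH1 and HNRNPR 1 each, while HNRNPA2B1, HNRNPD and HNRNPL had none. Loci in both cytoplasms and in no nucleus numbered 28, 12 of them in 3'UTRs, and loci in both nuclei and in no cytoplasm 15, of which 12 were intronic and 1 in a 3'UTR. The same patterns were not counted over all genes, so whether this split is particular to the members is not known.

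A strong locus without a cluster in the other library of a pair was frequent. Of the 20 member loci with at least 100 reads in the parental cytoplasm, 11 had no cluster in the parental nucleus (interval of the share 34.2 to 74.2%, against 45.9% for all genes). In KRT19 KO cells this was 5 of 17 (29.4%, 13.3 to 53.1%, against 52.8%). Conversely, 4 of the 12 loci strong in the parental nucleus had no cluster in the parental cytoplasm (33.3%, 13.8 to 60.9%, against 29.3%). For the KO nucleus and the KO cytoplasm this was 3 of 11 (27.3%, 9.75 to 56.6%, against 27.9%). Between cell lines, 3 of the 20 loci had no cluster in the KO cytoplasm (5.24 to 36.0%, against 19.2%), and 7 of the 12 strong in the parental nucleus had none in the KO nucleus (58.3%, 32.0 to 80.7%, against 30.4%). In the other direction, 1 of the 17 loci strong in the KO cytoplasm had no cluster in the parental one (5.88%, 1.05 to 27.0%, against 28.6%), and 5 of the 11 strong in the KO nucleus had none in the parental nucleus (45.5%, 21.3 to 71.99%, against 31.3%). No deposited cluster has fewer than 5 reads, so a locus without one may still have been bound.

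C made up 22.9%, 22.9%, 23.7% and 26.03% of the bases of member clusters against 25.7%, 25.98%, 27.6% and 28.8% over all genes, and was lower for the members in each library. G made up 9.93%, 10.04%, 11.2% and 9.34% against 7.02%, 7.48%, 8.51% and 6.41%, and was higher in each. The motif was in 24.9% (19.1 to 31.7%), 24.8% (18.7 to 32.2%), 21.3% (15.6 to 28.2%) and 29.0% (22.8 to 36.1%) of member clusters, against 29.7%, 29.9%, 33.0% and 33.5% over all genes. Weighted by reads, these shares were 34.7%, 24.8%, 41.2% and 48.4% against 38.1%, 46.2%, 43.1% and 42.1%, so that the KO nucleus was then the library where the members were above all genes. The T-to-C share of member reads was 51.4%, 53.5%, 60.6% and 66.3%, against 64.9%, 58.6%, 72.6% and 75.5% over all genes. The share was lower for the members in each library, and at their leading loci it ranged from 38.3% at HNRNPU to 64.7% at HNRNPL. By class it was lower for the members in 3'UTRs (50.8% against 55.4%), introns (61.7% against 74.1%) and 5'UTRs (58.4% against 64.3%). In the coding class, which takes in start and stop codon clusters, it was higher for them (61.5% against 57.3%). For the members that class includes the leading HNRNPD locus, with 982 reads, which is 3'UTR in the canonical transcript.

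Per kb of gene, HNRNPA1 was read most densely in the parental cytoplasm, at 25.7 RPM per kb over its 6.90 kb. HNRNPL, over 16.0 kb, was read least densely, at 0.473 RPM per kb. Of 15 further hnRNP genes, all 15 had clusters, and those with the most reads were SYNCRIP, HNRNPAB and HNRNPF. SYNCRIP, the paralog of HNRNPR, had 246, 872, 65.9 and 131 RPM. It was higher in the KO cytoplasm than in the parental one (3.54, 3.34 to 3.76), while HNRNPR was lower in the KO cytoplasm. The HNRNPR difference rested largely on its leading locus, as given above. HNRNPAB, a relative of the A/B group, stood 12.3 and 11.3 times as high in cytoplasm as in nucleus, near HNRNPA3 in its parental ratio. Over the 15 genes, 4 were past 2-fold higher and 4 lower in the parental cytoplasm than in the nucleus. Their median log2 ratio was -0.06, against 0.79 for the members. In KRT19 KO cells 5 were higher and 2 lower of 13 with enough reads, with a median of 0.51 against -0.59. Between cell lines, 5 were higher and 2 lower of 14 in the KO cytoplasm (median 0.40 against -0.23). In the KO nucleus 1 was higher and 2 lower of 12 (median 0.32 against 0.65). The shares of all genes past 2-fold are those given for the members above. The genes whose 4 levels were most like those of the members' sum were STK4, PTDSS1, RNF19A, SLC20A1 and MORF4L1, by the summed absolute difference of the shares over the 4 libraries (0.019 to 0.043, median 0.455 over 7453 genes), while single members lay between 0.272 and 0.733 from their own sum.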

How the data were processed

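HNRNPK PAR-CLIP clusters of 4 libraries were analysed. The 17 RNA-seq samples were not analysed here. According to the methods, the authors demultiplexed reads, collapsed reads of equal sequence ahead of trimming adapters and UMIs, aligned to hg19 and called clusters with PARalyzer in PARpipe. The authors deposited raw counts of reads, unique reads and T-to-C reads per cluster, without normalization, and these counts were used with positions, classes and gene names. Also deposited were the fraction of reads with a conversion, a mode score and a log10 conversion specificity, which were not used. The labels name hg38, while the cluster sequences matched GRCh37.

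Copies of a molecule that escaped collapsing are not independent reads, and deeper libraries have narrower intervals. Counts were summed per gene and scaled to all reads in clusters. Intervals of levels are Poisson, of ratios Clopper-Pearson and of shares Wilson. Past 2-fold was counted over genes with at least 50 reads in both libraries together. Positions were annotated with GENCODE v44lift37. Named loci were each member's leading locus and the 15 with the most reads, and those named beside them, as in HNRNPA2B1, HNRNPD, HNRNPH1 and HNRNPC, were chosen after their values were seen. Members and lists were chosen with earlier results of these data known. Alternatives covered minimum reads and conversion locations of a cluster, unique or T-to-C reads, scaling, overlap, and loci left out. Ratios, calls and loci were tested on simulated data. Python 3.11.15, numpy 2.4.6 and pandas 2.3.3 were used.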

Additional observations from a re-analysis of the deposited data

Results flagged for a closer look

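Several members moved in opposite directions under the same contrast in the 2 cell lines or fractions, with both intervals on their side of 1. None of these differences was tested, since each condition had 1 library. For HNRNPA2B1 the ratio of cytoplasm to nucleus was 3.90 (parental) and 0.739 (KRT19 KO), and the KO value was 0.190 times the parental one. For HNRNPD it was 2.72 and 0.737 (0.271 times), and for HNRNPR 1.94 and 0.471 (0.243 times). For HNRNPC, KRT19 KO over parental gave 0.615 in the cytoplasm and 1.18 in the nucleus, 1.92 times as high in the nucleus. For HNRNPM it was 0.732 and 1.77 (2.42 times), for HNRNPR 0.337 and 1.39 (4.11 times), and for HNRNPL 3.17 and 0.710 (0.224 times). With unique reads, the nuclear values of HNRNPC (1.03, 0.909 to 1.16) and HNRNPR (1.28, 0.908 to 1.82) had intervals that include 1. Without the leading locus of each member, a setting added once the values were known, HNRNPD stood at 0.857 (parental) and 0.231 (KO), HNRNPA2B1 at 1.95 and 1.02, and HNRNPR at 1.07 and 0.549.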

How the results depend on the processing

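With 1 library per condition, values outside their own 95% interval, and counts beyond 1.5 times the first, are given as moved. Ratios of the members' sum are given as parental cytoplasm to nucleus, KO cytoplasm to nucleus, KO to parental cytoplasm and KO to parental nucleus. They were 0.980, 0.618, 0.896 and 1.42 with at least 2 conversion locations, 1.20, 1.06, 1.12 and 1.26 with T-to-C reads only, and 1.40, 0.963, 0.914 and 1.33 when scaled without mitochondrial and the 10 leading clusters. Unique reads gave 1.17, 0.964 and 1.154 for all but the third, and clusters of at least 10 reads 0.967 for the KO cells. Of settings chosen after the values were seen, leaving out each member's leading locus gave 0.835, 0.776, 1.04 and 1.12, and loci with clusters in both libraries 1.20, 0.765, 1.13 and 1.34. The direction of the sum therefore depended on the setting in all but the nuclear comparison.

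Members past 2-fold numbered 1 in place of 2 between cytoplasms with a minimum of 200 reads, and 0 there and 2 in place of 5 between nuclei in loci with clusters in both libraries. At single members, directions reversed without the leading locus for HNRNPD (0.857, parental) and HNRNPA1 (0.385, KO), and in loci with clusters in both libraries for HNRNPD (0.910, parental) and HNRNPU (0.674, KO), all for cytoplasm to nucleus. No planned setting reversed a member past 2-fold. HNRNPL had no locus in both cytoplasms, so that setting gives no ratio for it there.

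The 3'UTR shares stayed larger in cytoplasm under each setting run. They were 54.1% in the parental and 65.9% in the KO cytoplasm with at least 10 reads, 54.6% and 65.7% (KO nucleus 16.2%) with 2 conversion locations, 49.6% and 61.0% (parental nucleus 13.4%) with T-to-C reads, and 26.6% and 30.7% by clusters. Unique reads gave 17.4% in the KO nucleus. Without the leading loci they were 38.8%, 59.0%, 12.9% and 12.5% in the usual order. Loci in all 4 libraries numbered 13 of fewer loci with either cluster minimum and 18 with an overlap of 50% of the shorter cluster. No paired analysis was possible because each PAR-CLIP condition had 1 library. Clusters below 5 reads are not listed, so a locus without a cluster may still have had reads.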
